A study of Mus musculus with 8 samples.

Results

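The comparison described here is the effect of the CD71 sort fraction that was shared by neutrophils taken from a mouse brain tumour and neutrophils made in culture. All 8 of the 8 libraries of the deposited count table entered it, and every gene was tested. The 4 libraries labelled CD71+ were set against the 4 labelled CD71-, with the origin of the cells as a block. There were 4 groups of 2 libraries. The tumour groups held CD71+ and CD71- neutrophils sorted by FACS from brain tumour tissue of mice, with the SB28 cell line, a mouse glioma line, named as the cell source. The culture groups held CD71+ and CD71- neutrophils generated in vitro from bone marrow of naive mice and sorted in the same way. No treatment is labelled for any group, and the labels do not name a strain, an age, the number of animals or the other markers of the sort gate. The tumour model therefore rests on 1 cell line, and the cultured cells had matured outside an animal. Whether the 2 libraries of a group came from different animals or cultures is not labelled, so p-values measure the spread of the libraries alone, and that spread may be technical. A gene is called shared below when it passed the test of the common effect and when, within the tumour and within the culture, each CD71+ library lay on the same side of both CD71- libraries.

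CD71 is the transferrin receptor, encoded by Tfrc, which carries iron-loaded transferrin from the cell surface into endosomes. It is abundant on dividing cells and on red cell precursors, and in the granulocyte lineage it is known from the proliferating precursors rather than from mature neutrophils. Neutrophils leave the bone marrow after their last division with ready-made granules, an assembled phagocyte oxidase and chemokine receptors for recruitment. Brain tumours also hold macrophages and microglia, which share phagocytic and antigen-presenting genes with other myeloid cells.

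Total counts ran from 9598959 to 22615813 per library, and both culture CD71+ libraries were the deepest. The share of counts from mitochondrially encoded genes was 7.09% and 12% in the culture CD71- libraries, 1.45% and 2.17% in culture CD71+, and 0.202% to 1.04% in the 4 tumour libraries. Levels are given as CPM, read counts brought to a common library size, with library sizes scaled by trimmed means (TMM). Genes with 0 counts may have up to 3 counts in a library, or 0.0916 to 0.419 CPM, a limit that covers counting error only.

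The gene of the sort marker did not follow the labels. In culture, Tfrc was at 130.7 and 94.4 CPM in the CD71- libraries and at 115.8 and 114.7 CPM in the CD71+ libraries, and these groups overlapped. In the tumour it was at 186.9 and 145.0 CPM in CD71- and at 103.3 and 108.0 CPM in CD71+, so that both libraries labelled CD71+ lay below both labelled CD71-. The common log2 fold change of CD71+ over CD71- was -0.31 ± 0.18 (SE) with an adjusted p of 0.23. Within the tumour it was -0.65 ± 0.19 with an adjusted p of 0.013. With the libraries scaled on mature neutrophil genes the common value turned to 0.53, with an adjusted p of 0.0368. CD71+ and CD71- below therefore stand for the libraries labelled so. The sort read the protein on the surface, and the transcript does not measure it.

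Of 15975 genes tested, 4089 (25.6%) passed in the common effect at an adjusted p under 0.05. Expression was higher in CD71+ for 2326 of them (14.6% of the genes tested) and lower for 1763 (11.0%). Irrespective of the test, 5331 genes (33.4%) were separated without overlap in the same direction within both origins, 3072 of them higher and 2259 lower in CD71+. A further 934 genes were separated as higher in tumour CD71+ and lower in culture CD71+, and 894 the other way round, so 74.5% of the 7159 genes separated in both origins had the same direction in each. The shared genes, which met both conditions, numbered 2011 higher (12.6% of the genes tested) and 1569 lower (9.82%). Protein-coding genes made up 1830 and 1397 of these.

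Shared rises were larger than shared falls. The median log2 fold change was 1.55 over the 2011 shared rises and -0.80 over the 1569 shared falls, beside 0.10 over all genes tested. At least a 2-fold change was reached by 1643 of the rises and by 449 of the falls. Rises had a median of 2.06 in the tumour and 1.10 in culture, whereas falls had -0.88 and -0.72. In a model with 4 group means, 777 of the shared rises and 706 of the shared falls passed within each origin on its own. The size of the effect differed between the origins at an adjusted p under 0.05 for 511 of the 3580 shared genes (14.3%), beside 15.5% of all genes tested. Among these, 430 rises were larger in the tumour and 14 in culture, while 31 falls were larger in the tumour and 36 in culture. For the other 3069 shared genes the difference did not pass, which does not show that the effects were equal in size. This count moved most with the libraries, to 204 and 185 without culture CD71+ libraries 1 and 2, to 232 and 182 without tumour CD71- libraries 1 and 2, and to 324 without tumour CD71+ library 2.

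**Figure D1:**
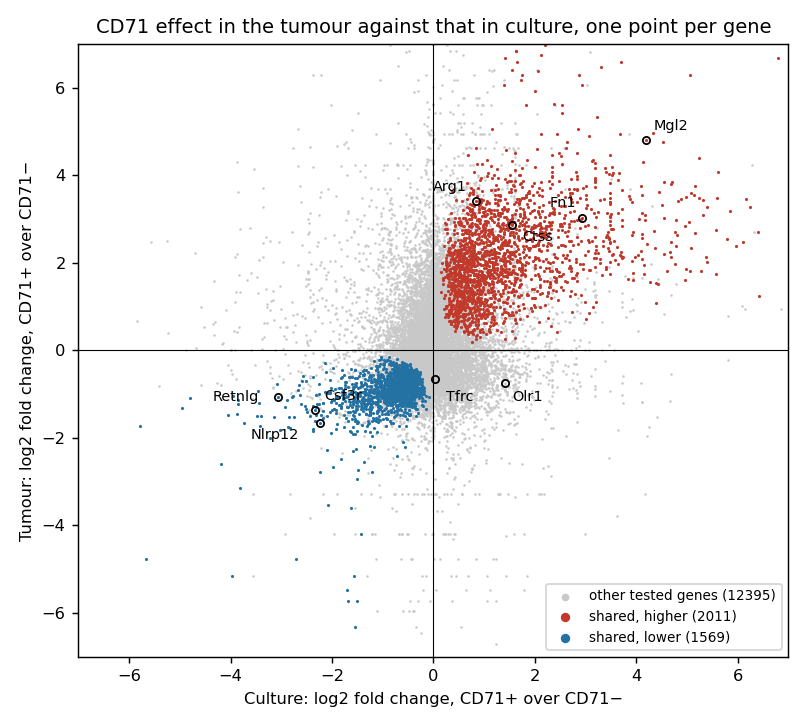
Each point is 1 tested gene, with the log2 fold change of CD71+ over CD71- in culture on the x axis and in the tumour on the y axis, from the model of 4 group means. The 2011 shared rises fill the upper right and the 1569 shared falls the lower left, and 48 genes lie outside the axes. Fold changes of genes with almost no counts in a group depend on the small count added in the fit.

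How firmly a direction can be stated depended on the scaling of the libraries. Relative to TMM, the median log2 fold change of all genes shifted by -0.13 with DESeq2 size factors, by 0.43 with total counts alone and by 0.84 with scaling on mature neutrophil genes, which sets those genes level between libraries by construction. Of the 2011 shared rises, 1725, 2011 and 2011 were shared again under these settings. Of the 1569 shared falls, 1569, 357 and 51 were. All 4 scalings together kept 1725 rises and 51 falls, and 25 of the shared falls passed as higher when scaled on mature neutrophil genes. The split of genes passing as higher and lower was 2326 and 1763 with TMM, 2036 and 2359 with DESeq2 size factors, 4860 and 432 with total counts, and 9327 and 103 on mature neutrophil genes. Total counts and scaling on mature neutrophil genes moved fold changes upward, so that they keep rises and lose falls was largely fixed in advance. Only DESeq2 size factors, which shifted the median downward, could have undone a rise. Rises below held their direction under all 4 scalings for every gene named as risen, which does not make them firmer than falls. Falls are relative to the TMM reference unless all 4 scalings are named. Leaving out tumour CD71- library 1 or 2 lowered the shared rises to 1112 and 1189, and no other single library moved the number of shared rises by over 1.5 times.

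Among the 12 largest shared rises with a mean of at least 5 CPM were Mgl2, Gpr183, Ccl22, Mertk, Dcstamp, Cenpf, C1qb, Frmd4b, Slco2b1, Pmepa1 and Fcrls, several of them known from macrophages. In culture, Slco2b1 had 1 count in both CD71- libraries together and 18 in CD71+ (adjusted p 0.054 within culture). Pmepa1 had 0 and 75 counts in the same groups. Mgl2, a macrophage galactose lectin, was at 4.21 and 7.53 CPM in culture CD71- and at 108.8 and 103.3 CPM in culture CD71+. In the tumour it was at 0.14 and 0.139 CPM in CD71-, a single count in each library, and at 2.7 and 5.47 CPM in CD71+. Both CD71+ libraries lay above both CD71- libraries in each origin, with a common log2 fold change of 4.26 ± 0.33 and an adjusted p of 4e-05. Mgl2 is a close copy of Clec10a, so reads could have been divided between them.

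Gpr183, an oxysterol receptor that guides migrating immune cells, was at 0.237 and 0.182 CPM in culture CD71- and at 6.02 and 5.5 CPM in culture CD71+. It was at 1.54 and 1.25 CPM in tumour CD71- and at 17.5 and 22.6 CPM in tumour CD71+. The groups did not overlap in either origin, and the common rise was 18-fold (log2 4.17 ± 0.33, adjusted p 4.6e-05). Mertk, a receptor for the uptake of apoptotic cells, went from 2.13 and 0.817 CPM to 17.4 and 15.4 CPM in culture. In the tumour, Mertk was at 9.37 and 9.71 CPM in CD71- and at 109.9 and 231.8 CPM in CD71+. Its common rise was 14.2-fold (adjusted p 7.1e-05), and the difference between the origins, 0.78 on the log2 scale, did not pass (adjusted p 0.40).

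The smallest adjusted p, 4.5e-06, belonged to Ccr2 and Lpl. Ccr2, the chemokine receptor that brings inflammatory monocytes into tissue, was at 9.19 and 7.99 CPM in culture CD71- against 100.4 and 93.5 CPM in culture CD71+. The tumour values were 14.5 and 11.8 CPM in CD71- and 119.2 and 100.4 CPM in CD71+. Ccr2 was thus about as high in CD71+ libraries of both origins, with log2 fold changes of 3.06 ± 0.20 in the tumour and 3.49 ± 0.20 in culture. Lpl, the lipoprotein lipase that frees fatty acids from lipoproteins, was at 39.3 and 44.0 CPM against 462.9 and 351.7 CPM in culture and at 2.1 and 1.25 CPM against 18.6 and 17.5 CPM in the tumour. Its level differed widely between the origins, whereas its log2 fold changes, 3.43 ± 0.28 in the tumour and 3.29 ± 0.20 in culture, differed by 0.14 (adjusted p 0.84).

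**Figure D2:**
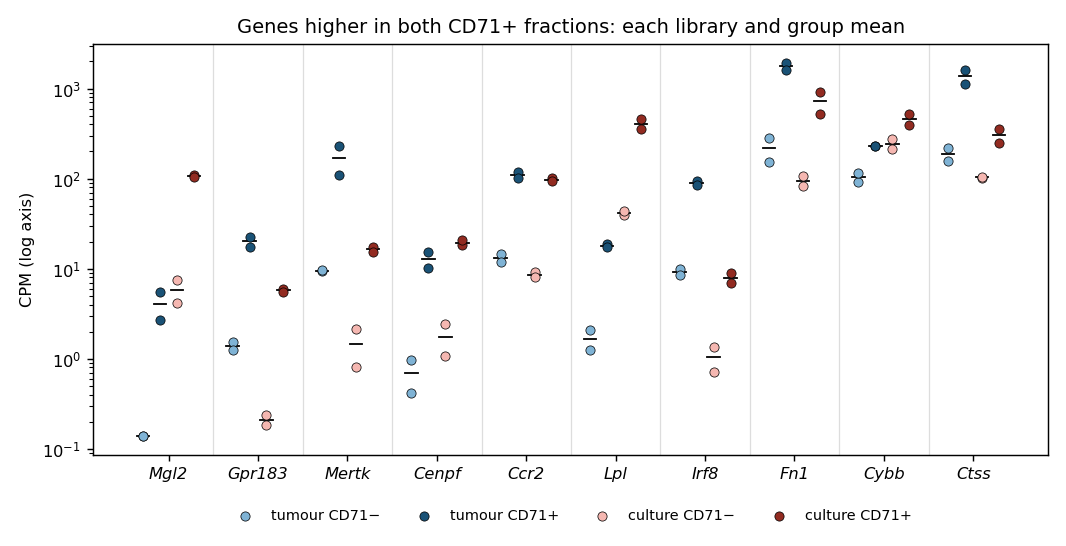
CPM on a log axis in each of the 8 libraries for 10 shared rises, with dots for libraries, short lines for the mean of 2, blue for the tumour and red for culture, and the darker shade for CD71+. Each dark dot lies above both light dots of its colour, and the levels of Lpl and Mgl2 are higher in culture while those of Mertk are higher in the tumour.

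Markers of macrophages and monocytes rose as a group. Of 19 members tested, 13 passed as higher and all 13 were shared (68.4%, beside 12.6% of all genes), none was shared as lower, and the median log2 fold change was 2.05. The complement starters C1qa, C1qb and C1qc were almost absent in culture, where C1qb was at 0.0593 and 0 CPM in CD71- and at 1.86 and 1.07 CPM in CD71+. In the tumour C1qb was at 34 and 37.5 CPM in CD71- and at 406.7 and 456.3 CPM in CD71+, and both origins were separated. Csf1r, the receptor of macrophage colony-stimulating factor, rose less in culture (526.6 and 566.3 to 791.8 and 704.0 CPM) than in the tumour (266.3 and 237.7 to 850.4 and 1033.7 CPM), and this difference passed (adjusted p 0.002). Csf1r overlaps Hmgxb3 on the other strand. Not every marker followed: Cd68 was at 41.8 and 46.6 against 128.9 and 78.6 CPM in culture and at 277.7 and 241.0 against 214.3 and 188.0 CPM in the tumour, opposite directions. Apoe, the lipid carrier, did not pass (adjusted p 0.095), with 68.2 and 79.2 against 764.9 and 701.4 CPM in the tumour and 23.9 and 25.7 against 29.1 and 20.6 CPM in culture.

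The summed level of the 19 macrophage and monocyte markers tested, which leave out Cd163, moved with the sort fraction in both origins. It was 1078.5 and 1147.3 CPM in culture CD71-, 1910.8 and 1592.4 CPM in culture CD71+, 1307.0 and 1351.8 CPM in tumour CD71-, and 5693.2 and 6714.6 CPM in tumour CD71+. Of all 20 members, C1qa and Cd163 were at 0 in culture CD71-, and none was at 0 in both libraries of the other groups. The 10 microglia markers summed to 81.8 and 85.2 CPM, 182.7 and 148.1 CPM, 175.6 and 238.8 CPM, and 1196.9 and 1690.3 CPM in the same order, with Sall1 and Siglech at 0 in all culture libraries. Of the microglia list, 7 of 10 passed as higher and 5 were shared, among them Fcrls, at 0.771 and 0.545 against 10.5 and 9.52 CPM in culture and 15.2 and 11.7 against 131.9 and 164.4 CPM in the tumour (log2 3.61 ± 0.21, adjusted p 5.2e-06). In bulk libraries such as these, fewer cells of a type and less RNA per cell cannot be told apart. The macrophage sum moved with every group of rises and falls described below, and its part in them was not tested.

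Sums of other cell types gave a mixed picture. These sums cover tested members only: 8 of 10 dendritic cell, 1 of 10 erythroid, 5 of 12 lymphocyte and 10 of 14 glioma and neural markers. Dendritic cell markers summed to 452.9 to 570.1 CPM in culture, where the groups overlapped, and to 1107.9 and 682.3 CPM in tumour CD71- against 717.6 and 573.7 CPM in tumour CD71+, which overlapped too. Gene by gene their median log2 fold change was 1.14, with 1.63 in the tumour and 0.83 in culture. Of the 8 tested, 3 passed as higher, and Irf8 and Ccr7 were shared rises (25.0%, beside 12.6% of all genes). Another 2 were separated in opposite directions in the origins. Red cell genes were near the counting limit, with erythroid sums from 0 to 1.64 CPM and Hba-a1 and Hba-a2 at 0 in all 8 libraries. Lymphocyte sums ran from 0.771 to 19 CPM. Glioma and neural markers summed to 234.3 and 310.6 CPM in culture CD71-, 405.9 and 350.7 CPM in culture CD71+, 431.6 and 363.4 CPM in tumour CD71-, and 842.1 and 582.3 CPM in tumour CD71+. Most of these markers, 10 of 14 and 9 of 14, were at 0 in both libraries of culture CD71- and CD71+, and none was in the tumour groups. The sums are carried by Vim, a filament protein also made by myeloid cells, at 134.7 and 208.9 against 313.1 and 271.8 CPM in culture and 283.3 and 229.5 against 629.4 and 448.1 CPM in the tumour. What part these cells had in the results was not tested.

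Class II antigen presentation was the list with the highest share of shared rises. Of 14 members, 13 passed as higher and 12 were shared (85.7%), with a median log2 fold change of 2.11, or 2.21 in the tumour and 1.62 in culture. Class II molecules show peptides to helper T cells, and Ciita is the coactivator that switches their genes on. Ciita was at 0.297 and 2.0 CPM in culture CD71- and at 9.65 and 14.0 CPM in culture CD71+. In the tumour it was at 0.419 and 0.694 CPM against 7.61 and 4.24 CPM, again without overlap, with a common log2 fold change of 3.43 ± 0.52 (adjusted p 0.0014). Cd74, the invariant chain that escorts class II molecules, was far more abundant, at 236.3 and 338.1 against 759.7 and 614.5 CPM in culture and 100.4 and 93.7 against 391.8 and 305.6 CPM in the tumour. Its log2 fold change was 1.55 ± 0.19 (adjusted p 0.00057). H2-DMb1 and H2-DMb2, close copies of the chain that helps load the peptide, rose by 2.44 ± 0.33 and 2.64 ± 0.41, though reads may have been divided between them. H2-DMb2 went from 6.64 and 10.8 to 32.7 and 38.8 CPM in culture and from 0.28 and 0.139 to 5.97 and 4.62 CPM in the tumour.

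Promoters of class II genes carry a Y box, an inverted CCAAT element bound by NF-Y. H2-DMb2 and H2-DMb1 had the largest rises among shared members of the list whose promoter window held CCAAT. For that reason the 250 bases before their starts are shown. They come from RefSeq's promoter table for GRCm38.p6, at chr17:34144999-34145248 and chr17:34152941-34153190, both on the plus strand, and capitals mark CCAAT read on either strand. The RefSeq start of H2-DMb2 lies 1942 bases from the GENCODE start.
H2-DMb2: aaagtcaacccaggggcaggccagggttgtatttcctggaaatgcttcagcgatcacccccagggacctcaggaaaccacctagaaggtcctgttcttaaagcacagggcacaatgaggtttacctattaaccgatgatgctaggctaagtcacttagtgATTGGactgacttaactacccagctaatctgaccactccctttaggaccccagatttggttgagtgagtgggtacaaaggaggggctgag
H2-DMb1: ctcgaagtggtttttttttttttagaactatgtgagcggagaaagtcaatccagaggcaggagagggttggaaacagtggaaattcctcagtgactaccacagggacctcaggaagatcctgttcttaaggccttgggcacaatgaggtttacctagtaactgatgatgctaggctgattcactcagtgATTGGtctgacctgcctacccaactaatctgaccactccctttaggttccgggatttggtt
The motif CCAAT, on either strand, was found in 5 of the 9 class II promoters in the table (55.6%), beside 36.3% of the 10439 tested genes that could be matched to it. A match describes the letters only.

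Cell cycle genes, which are largely silent in mature neutrophils, were higher in CD71+ of both origins. Of 30 members tested, 19 were shared rises (63.3%) and none was a shared fall, with a median log2 fold change of 1.31. Leaving out tumour CD71- library 1 or 2 or tumour CD71+ library 2 moved this count by over 1.5 times, within a range of 11 to 25 over all 8 libraries left out in turn, and 15 members passed with DESeq2 size factors. Cenpf, a kinetochore protein, was at 1.07 and 2.45 against 18.1 and 20.6 CPM in culture and 0.979 and 0.416 against 10.3 and 15.4 CPM in the tumour (13.5-fold, adjusted p 0.00017). Top2a, the topoisomerase that untangles replicated DNA, was at 7.83 and 16.8 against 34.3 and 39.1 CPM in culture and 5.59 and 6.38 against 30.6 and 34.8 CPM in the tumour (log2 1.99 ± 0.28, adjusted p 0.0011). Kif11, the motor that separates spindle poles, was at 3.26 and 6.81 against 11.1 and 13.5 CPM in culture and 1.54 and 0.833 against 7.61 and 13.5 CPM in the tumour. All 3 were separated in both origins and all were low, below 40 CPM. Pcna, the replication clamp, was not higher with TMM (log2 0.09 ± 0.19, adjusted p 0.76), with 20 and 29.5 against 35.2 and 26.4 CPM in culture and 87.0 and 73.4 against 73.7 and 71.3 CPM in the tumour.

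Promoters of late cell cycle genes are known for CCAAT boxes next to a cell cycle homology region, TTTGAA. The promoters of Top2a and Kif11 are shown because they hold both, at chr11:99024190-99024439 on the minus strand and chr19:37376132-37376381 on the plus strand, with either motif on either strand in capitals.
Top2a: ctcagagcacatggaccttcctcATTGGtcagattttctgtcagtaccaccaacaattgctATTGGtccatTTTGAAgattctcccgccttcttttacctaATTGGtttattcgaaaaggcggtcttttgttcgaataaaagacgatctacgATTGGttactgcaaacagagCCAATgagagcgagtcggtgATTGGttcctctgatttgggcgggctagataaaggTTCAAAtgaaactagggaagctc
Kif11: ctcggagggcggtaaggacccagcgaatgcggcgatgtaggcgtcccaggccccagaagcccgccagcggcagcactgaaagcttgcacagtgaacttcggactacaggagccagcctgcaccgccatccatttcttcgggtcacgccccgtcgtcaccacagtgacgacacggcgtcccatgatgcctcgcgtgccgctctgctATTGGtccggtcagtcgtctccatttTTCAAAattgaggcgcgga
In the matched promoters, CCAAT was found in 21 of 24 cell cycle genes (87.5%) and TTTGAA in 7 of 24 (29.2%), beside 36.3% and 11.1% of all matched genes. The Top2a window held 6 CCAAT matches.

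Genes of cholesterol and fatty acid synthesis rose in both origins. Of 22 tested, 13 were shared rises (59.1%) and none was a shared fall, with a median log2 fold change of 1.15, or 1.14 in the tumour and 0.91 in culture. Dhcr7, the last enzyme of cholesterol synthesis, was at 1.9 and 2.81 against 11.4 and 8.86 CPM in culture and 2.1 and 1.25 against 7.71 and 8.58 CPM in the tumour (4.55-fold, adjusted p 0.00087). Sqle, the squalene epoxidase, was at 18.7 and 16.7 against 53.7 and 48.8 CPM in culture and 2.66 and 1.94 against 13.9 and 8.11 CPM in the tumour (3.56-fold, adjusted p 0.00094). Both enzymes were separated in each origin, and the difference in their fold between the origins did not pass (adjusted p 0.88 and 0.26). Fasn, the fatty acid synthase, rose by 1.81 ± 0.29 (14.8 and 28.5 to 62.0 and 72.5 CPM in culture, 11.5 and 6.66 to 48.7 and 24.2 CPM in the tumour). Nsdhl, another late enzyme of the sterol pathway, rose by 2.06 ± 0.40, from 3.62 and 5.45 to 14.8 and 11.2 CPM in culture and from 1.4 and 0.416 to 8.19 and 5.37 CPM in the tumour. NF-Y sites accompany sterol elements in this pathway. Nsdhl and Fasn had the largest rises among shared members whose promoter window held CCAAT, so both promoters are shown, with CCAAT boxes in capitals. Fasn lies at chr11:120824548-120824797 on the minus strand and Nsdhl at chrX:72918271-72918520 on the plus strand.
Fasn: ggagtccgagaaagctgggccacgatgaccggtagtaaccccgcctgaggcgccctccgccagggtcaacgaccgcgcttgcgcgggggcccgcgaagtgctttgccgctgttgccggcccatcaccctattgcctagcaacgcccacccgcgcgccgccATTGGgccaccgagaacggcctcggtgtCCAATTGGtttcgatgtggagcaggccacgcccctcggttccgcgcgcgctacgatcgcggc
Nsdhl: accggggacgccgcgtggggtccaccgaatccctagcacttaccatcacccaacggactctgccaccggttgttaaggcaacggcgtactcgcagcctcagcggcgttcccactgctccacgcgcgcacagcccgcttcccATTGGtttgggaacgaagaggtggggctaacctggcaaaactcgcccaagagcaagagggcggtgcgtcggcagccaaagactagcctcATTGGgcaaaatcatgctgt
Of the 14 matched promoters of the list, 11 held CCAAT (78.6%), beside 36.3% of all matched genes.

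Lipid uptake and storage genes accompanied them only in part. Of 19 tested, 7 were shared as higher (36.8%) and 1 as lower. The falls reached 2 without either culture CD71- library or culture CD71+ library 1. Another 4 members were separated in opposite directions in the origins. The list's sum rose from 1324.3 and 1236.9 to 2211.1 and 1908.5 CPM in culture. In the tumour the sum fell from 9737.8 and 8438.9 to 6218.0 and 5751.7 CPM. Msr1, a scavenger receptor for modified lipoproteins, was at 21.5 and 21.6 against 93.5 and 85.5 CPM in culture and 17.3 and 13 against 148.6 and 129.1 CPM in the tumour (6.1-fold, adjusted p 0.00011). Cd36, a fatty acid and lipoprotein receptor, rose by 1.89 ± 0.36, from 0.593 and 2.09 to 8.31 and 5.99 CPM in culture and from 18.3 and 13.2 to 48.8 and 36.9 CPM in the tumour. Dgat1, which makes triglyceride, was the member that fell, from 106.9 and 88.1 to 60.8 and 55.1 CPM in culture and from 3124.5 and 2399.0 to 1040.2 and 925.6 CPM in the tumour (log2 -1.12 ± 0.19, adjusted p 0.0027). Dgat1 was again a shared fall with DESeq2 size factors and total counts and was not one when scaled on mature neutrophil genes.

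Lysosomal genes rose at high levels of expression. Of 22 tested, 13 were shared rises (59.1%), none was a shared fall, and the median log2 fold change was 0.84. Ctss, the cathepsin that trims the invariant chain, was at 102.4 and 105.0 against 355.0 and 249.6 CPM in culture and 158.8 and 217.6 against 1115.2 and 1618.0 CPM in the tumour (4.6-fold, adjusted p 0.00068). Lgmn, a lysosomal endopeptidase, was at 4.86 and 6.45 against 23.1 and 17.5 CPM in culture and 99.5 and 84.2 against 584.9 and 732.6 CPM in the tumour (5.21-fold, adjusted p 0.00017). Both rises were larger in the tumour (adjusted p of the difference 0.015 and 0.038). Psap, the precursor of the saposins that aid lipid breakdown, was the shared rise with the highest mean level, at 2643.8 and 3653.0 against 6351.5 and 5384.6 CPM in culture and 876.5 and 825.6 against 1471.9 and 1494.8 CPM in the tumour. Its log2 fold changes of 0.80 ± 0.19 in the tumour and 0.90 ± 0.19 in culture differed by -0.10 (adjusted p 0.85). Ctsb, another abundant cathepsin, rose by 0.88 ± 0.19, with Fdft1 overlapping it on the other strand.

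Among other abundant rises, Fn1, the matrix protein fibronectin, went from 106.7 and 83.0 to 925.0 and 515.2 CPM in culture and from 283.1 and 151.7 to 1937.5 and 1598.3 CPM in the tumour. The common rise was 7.86-fold (log2 2.97 ± 0.25, adjusted p 7.1e-05). Lyz2, the lysozyme of myeloid cells, rose 2.13-fold (adjusted p 0.0052). Ahnak, a large scaffold protein, was at 1186.3 and 977.9 against 1432.3 and 1352.1 CPM in culture and 356.1 and 171.9 against 1262.0 and 1220.1 CPM in the tumour, a rise larger in the tumour (adjusted p of the difference 0.0063). The Ahnak call was lost without tumour CD71- library 1 or 2 or tumour CD71+ library 1 (adjusted p 0.0928, 0.0639 and 0.0553). Eef1a1, the elongation factor that brings aminoacyl-tRNA to the ribosome, rose 1.78-fold (adjusted p 0.011), a call lost without tumour CD71- library 1 or 2 (adjusted p 0.063 and 0.0638). Mpeg1, a pore-forming protein of phagocytes, rose 1.53-fold (adjusted p 0.036), but passed in only 1 of the 8 fits without a library, that without tumour CD71+ library 1, and not with DESeq2 size factors.

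Genes of ribosome production and of serine and folate synthesis, both tied to growth, were partly higher. In the Myc and ribosome biogenesis list, 10 of 28 were shared rises (35.7%), with medians of 1.38 in the tumour and 0.18 in culture. This count ran from 4 to 16 as single libraries were left out, and moved by over 1.5 times without either culture CD71- library, either tumour CD71- library or tumour CD71+ library 1. Npm1, a nucleolar chaperone, was at 118.7 and 130.2 against 185.0 and 159.2 CPM in culture and 18.6 and 19 against 85 and 93.1 CPM in the tumour, a larger rise in the tumour (adjusted p of the difference 0.0006). Psat1, an enzyme of serine synthesis, was at 0.949 and 1.45 against 5.28 and 5.57 CPM in culture and 5.45 and 4.86 against 26.4 and 38.8 CPM in the tumour (5.46-fold, adjusted p 0.00031). Mthfd2, of mitochondrial folate metabolism, rose by 2.07 ± 0.35 in the tumour and 2.08 ± 0.32 in culture. In the same list of amino acid stress and protein folding, where 7 of 24 were shared rises and 4 shared falls, the stress factor Ddit3 fell from 160.2 and 132.9 to 57.4 and 57.3 CPM in the tumour and from 9.55 and 11.2 to 5.99 and 7.3 CPM in culture (adjusted p 0.0039). Ddit3 is annotated with overlapping genes on both strands, and its fall was not called when scaled on mature neutrophil genes. The falls of this list numbered 2 or 3 without a library, with 2 without tumour CD71- library 1 or tumour CD71+ library 2.

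Iron genes, the system that CD71 serves, moved in both directions. Of 19 tested, 5 were shared rises and 5 shared falls (26.3% each). Slc11a2, the endosomal exporter of the iron that transferrin delivers, was at 4.15 and 3.36 against 9.25 and 9.69 CPM in culture and 5.73 and 5.83 against 35.0 and 41.3 CPM in the tumour (4.05-fold, adjusted p 0.0014). Steap3, the reductase of the same endosomes, rose by 2.75 ± 0.62 at levels below 3 CPM (0 and 0.0908 to 0.641 and 0.796 CPM in culture, 0.419 and 0.555 to 2.5 and 1.98 CPM in the tumour). Hfe, which binds the transferrin receptor, rose 3.69-fold (adjusted p 0.0041), and Aco1, an iron-sensing RNA-binding protein, rose by 1.46 ± 0.29. The exporter ferroportin, Slc40a1, fell from 68.3 and 50.6 to 26 and 23 CPM in culture and from 225.0 and 226.0 to 103.9 and 101.5 CPM in the tumour (2.31-fold lower, adjusted p 0.0005). It was a shared fall with every scaling except that on mature neutrophil genes. The ferritin genes did not pass: Fth1 was at 1167.2 and 1442.4 against 1241.5 and 883.6 CPM in culture and 7649.9 and 7016.5 against 5475.3 and 4798.1 CPM in the tumour (log2 -0.40 ± 0.18, adjusted p 0.11). The number of falls in this list was 3 to 5 as libraries were left out, with each of the 4 tumour libraries moving it by over 1.5 times. The list's median was -0.24, turned to 0.19 with total counts and was 0.58 on mature neutrophil genes.

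The cytokine and chemokine list held changes in both directions. Of 24 tested, 8 were shared rises (33.3%, beside 12.6% of all genes). Il1b and Nlrp3 were the 2 shared falls (8.33%, below the 9.82% of all genes), while 8 were separated in opposite directions in the origins. The falls numbered 1 to 4 as libraries were left out, moved by over 1.5 times without culture CD71- library 2, tumour CD71- library 1 or either tumour CD71+ library. Il6 was at 0.178 and 0.454 against 1.37 and 2.49 CPM in culture and 1.4 and 1.94 against 19.8 and 10.4 CPM in the tumour (log2 2.98 ± 0.42, adjusted p 0.001). Ccl2, the ligand of Ccr2, was at 1.3 and 1.82 against 4.09 and 2.53 CPM in culture and 5.31 and 4.72 against 44.3 and 46.8 CPM in the tumour, a larger rise in the tumour (adjusted p of the difference 0.0084). Ccl22, a chemokine that attracts regulatory T cells, was at 1.3 and 3.18 against 23.4 and 19.3 CPM in culture and 0 and 0.139 against 12.1 and 1.7 CPM in the tumour. Il12b was at 3.76 and 12.1 CPM in tumour CD71+, at 0 in tumour CD71- and at most 0.173 CPM in culture. Il12b and Ccl7 counted as shared in culture on few reads, 1 and 0 counts in CD71- against 7 and 5 in the deeper CD71+ libraries. Neither passed within culture (adjusted p 0.56 and 0.27).

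Il1b and Nlrp3 were among the most abundant falls. Nlrp3, the sensor of the inflammasome that matures IL-1beta, was at 362.8 and 319.0 against 159.2 and 169.7 CPM in culture and at 12231.9 and 9237.7 against 5578.7 and 4802.6 CPM in the tumour. Its log2 fold change was -1.05 ± 0.19 in each origin, although its level differed widely between them (common adjusted p 0.0019). It was not a shared fall when scaled on mature neutrophil genes. Il1b was at 144.8 and 130.7 against 90.1 and 98.0 CPM in culture and 13484.3 and 11510.6 against 7780.7 and 6956.8 CPM in the tumour (log2 -0.66 ± 0.16, adjusted p 0.015). The groups were separated in both origins, but the value turned to 0.18 when scaled on mature neutrophil genes and did not pass with total counts. The Il1b call was also lost without tumour CD71- library 1 or either tumour CD71+ library (adjusted p 0.0516, 0.0502 and 0.0537), and Il1b shares its place with the antisense gene Il1bos.

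Mature neutrophil markers fell together. Of 25 tested, 17 passed as lower and all 17 were shared (68.0%, beside 9.82% of all genes), none was a shared rise, and the median log2 fold change was -0.78, with -0.89 in the tumour and -0.53 in culture. The median was -0.91 with DESeq2 size factors, -0.35 with total counts, and 0.05 with scaling on these genes themselves. Csf3r, the receptor of granulocyte colony-stimulating factor, was at 1877.1 and 1449.3 against 311.9 and 351.3 CPM in culture and at 5787.5 and 5339.9 against 2302.4 and 1999.0 CPM in the tumour. It fell 3.6-fold (log2 -1.85 ± 0.22, adjusted p 0.00052), more in culture than in the tumour (adjusted p of the difference 0.025), and was a shared fall with all 4 scalings. Retnlg, a resistin-like protein of neutrophils, was at 191.0 and 122.7 against 22.4 and 14.9 CPM in culture and 414.1 and 917.8 against 245.3 and 390.1 CPM in the tumour (4.17-fold lower, adjusted p 0.0073, and 0.0595 without culture CD71+ library 1). Cxcr2, the receptor for neutrophil-attracting chemokines, was at 735.7 and 503.8 against 332.7 and 310.3 CPM in culture and 1271.3 and 1668.5 against 714.1 and 737.6 CPM in the tumour, with log2 fold changes of -1.02 ± 0.20 and -0.95 ± 0.20 in tumour and culture. Its relative Cxcr1 fell 3.57-fold (adjusted p 0.0024) with all 4 scalings. Retnlg was not a shared fall with total counts or on mature neutrophil genes, nor was Cxcr2 on the latter.

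S100a8 and S100a9, the calprotectin pair of the neutrophil cytosol, fell more in culture. S100a9 was at 1124.2 and 1565.5 against 349.6 and 272.7 CPM in culture and 1530.8 and 1701.1 against 1217.1 and 1089.8 CPM in the tumour, without overlap in either. The common log2 fold changes were -1.30 ± 0.31 for S100a9 and -1.20 ± 0.26 for S100a8, and the origins differed for both (adjusted p 0.0024 and 0.015). Ly6g, the surface antigen used to define mouse neutrophils, was at 78.3 and 60.3 against 23.1 and 16.3 CPM in culture and 9.37 and 14.2 against 6.07 and 9.05 CPM in the tumour (2.41-fold lower, adjusted p 0.011). These 3 falls were not shared with total counts or on mature neutrophil genes. The mature neutrophil sum was 10346.7 and 9567.9 CPM in culture CD71-, 5365.1 and 4499.1 CPM in culture CD71+, 39139.6 and 41600.4 CPM in tumour CD71-, and 22143.6 and 21244.1 CPM in tumour CD71+. Neutrophil genes were thus high in every library, and no member of the list was at 0 in any group. Of the early neutrophil markers, 2 of 11 tested were shared rises (18.2%, beside 12.6% of all genes), the progenitor genes Cd34 and Sox4. The list's median was 0.09, and 2 members were separated in opposite directions in the origins. The 11 tested summed to 123.5 and 121.2 against 80.6 and 69.2 CPM in culture and 44.0 and 50.6 against 108.9 and 134.1 CPM in the tumour.

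**Figure D3:**
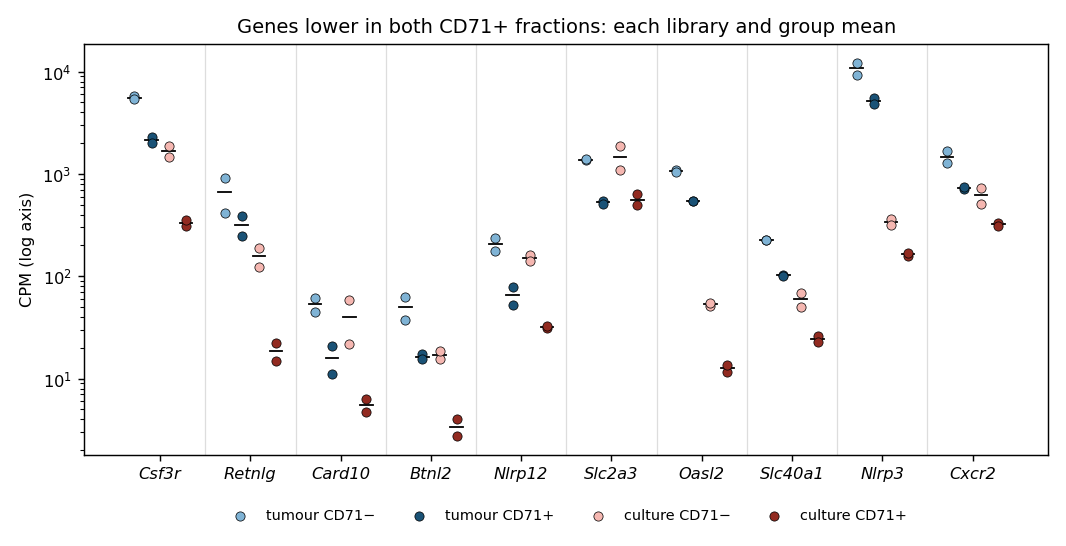
CPM on a log axis in each of the 8 libraries for 10 shared falls, drawn as in the plot of rises. Each dark dot lies below both light dots of its colour with TMM scaling. Levels of Nlrp3 and Oasl2 are far higher in the tumour than in culture, while those of Slc2a3 are of the same order in both.

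The largest falls with a mean of at least 5 CPM included regulators of inflammation. Nlrp12, a restraining NLR protein of neutrophils, was at 161.0 and 139.8 against 31.0 and 32.6 CPM in culture and 236.4 and 176.0 against 78.0 and 52.5 CPM in the tumour (3.87-fold lower, adjusted p 0.00017), though a cluster of miRNA genes overlaps it. Card10, a scaffold of NF-kB signalling, was at 22.0 and 58.2 against 4.7 and 6.26 CPM in culture and 61.8 and 44.5 against 20.8 and 11.0 CPM in the tumour (4.94-fold lower, adjusted p 0.0019). Btnl2, a butyrophilin-like inhibitor of T cells, was at 15.5 and 18.7 against 2.75 and 4.05 CPM in culture and 62.9 and 37.2 against 17.3 and 15.5 CPM in the tumour (3.9-fold lower, adjusted p 0.00076). All 3 were separated in both origins and were shared falls with all 4 scalings. Rnf144a, a ubiquitin ligase, fell 3.97-fold with all 4 scalings too, and more in culture (adjusted p of the difference 0.0011). Tchh, known from the hair follicle, was at 13.2 and 25.1 against 1.1 and 1.31 CPM in culture, with 0.419 and 0.139 against 0 CPM in the tumour.

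Parts of the phagocyte oxidase moved in opposite directions. Of 9 members, 2 were shared rises (22.2%) and 5 shared falls (55.6%). Cybb, the membrane subunit that carries the electrons, rose from 272.9 and 213.4 to 518.6 and 394.9 CPM in culture and from 91.7 and 114.6 to 231.1 and 229.9 CPM in the tumour (2.05-fold, adjusted p 0.0016). Hvcn1, the proton channel that balances the charge, rose by 1.33 ± 0.25. The cytosolic subunit Ncf4 fell from 239.4 and 236.7 to 150.2 and 167.9 CPM in culture and from 468.8 and 410.6 to 240.3 and 192.2 CPM in the tumour (1.74-fold lower, adjusted p 0.0042). Ncf4 was not a shared fall with total counts, and its log2 fold change turned to 0.03 on mature neutrophil genes. The number of falls was 3 to 5 as libraries were left out, moved by over 1.5 times without tumour CD71+ library 2.

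Of the secondary and tertiary granule genes, 6 of 17 were shared falls (35.3%, beside 9.82% of all genes) and 2 shared rises (11.8%, beside 12.6%). Olfm4, an olfactomedin of a neutrophil subset, fell 2.54-fold (20 and 15.3 to 5.86 and 6.64 CPM in culture, 93.5 and 114.9 to 51.7 and 39.2 CPM in the tumour, adjusted p 0.00083). Pglyrp1, a peptidoglycan-binding granule protein, fell 2.06-fold (162.4 and 163.6 to 73.0 and 65.0 CPM in culture, 48.0 and 59.0 to 31.0 and 28.7 CPM in the tumour, adjusted p 0.0012). The 2 rises, a share near that of all genes, were Cybb and Lyz2. Macrophages also express both, and the part of other cells in these values was not tested. Neither Olfm4 nor Pglyrp1 was a shared fall on mature neutrophil genes, and the list's median of -0.51 turned to 0.32 on mature neutrophil genes.

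The interferon response list held more shared falls than rises with TMM scaling. Of 25 tested, 11 were shared falls (44.0%) and 2 shared rises, and the median was -0.54. That median was -0.10 with total counts, where 5 members passed as higher and 2 as lower, and turned to 0.30 on mature neutrophil genes, where 8 passed as higher and 1 as lower. Oasl2, an antiviral protein of the OAS family, was at 51.7 and 54.3 against 11.7 and 13.5 CPM in culture and 1097.0 and 1052.4 against 542.6 and 545.2 CPM in the tumour (2.86-fold lower, adjusted p 0.001), not a shared fall on mature neutrophil genes. Its fall was larger in culture (adjusted p of the difference 0.0066). Mx1, a GTPase that blocks viral replication, rose instead from 0.712 and 0.908 to 3.76 and 4.15 CPM in culture and from 2.66 and 2.22 to 26.3 and 37.9 CPM in the tumour (8.42-fold, adjusted p 0.0004). Bst2, a tether of budding viruses, rose 2.56-fold (adjusted p 0.012), a call lost without tumour CD71- library 1 (adjusted p 0.0525). Isg15, a ubiquitin-like modifier, fell from 2.31 and 2.27 to 0.947 and 1.25 CPM in culture and from 202.6 and 207.0 to 140.6 and 130.1 CPM in the tumour. Oas3, a sensor that makes oligoadenylate, fell from 21 and 29.1 to 17.2 and 16.0 CPM in culture and from 566.4 and 594.7 to 312.9 and 223.9 CPM in the tumour. Neither was a shared fall with total counts or on mature neutrophil genes.

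The promoters of Isg15 and Oas3 are shown since these genes carry interferon-stimulated response elements. They lie at chr4:156200819-156201068 and chr5:120777660-120777909, both on the minus strand, with the core GAAANNGAA on either strand in capitals.
Isg15: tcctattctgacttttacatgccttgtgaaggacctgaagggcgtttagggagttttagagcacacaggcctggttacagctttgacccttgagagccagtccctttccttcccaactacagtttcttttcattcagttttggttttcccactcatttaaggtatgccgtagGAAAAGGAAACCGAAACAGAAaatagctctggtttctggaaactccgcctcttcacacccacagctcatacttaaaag
Oas3: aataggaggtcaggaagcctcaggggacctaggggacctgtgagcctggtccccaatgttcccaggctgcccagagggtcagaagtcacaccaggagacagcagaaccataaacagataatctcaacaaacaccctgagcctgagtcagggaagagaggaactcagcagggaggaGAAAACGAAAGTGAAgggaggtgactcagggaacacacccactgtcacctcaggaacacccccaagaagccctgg
This core was found in 10 of 20 matched interferon promoters (50%), beside 6.49% of all matched genes, and 4 of the 11 shared genes with a promoter in the table held it, the falls Isg15, Oas3 and Rsad2 and the rise Bst2.

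**Figure D4:**
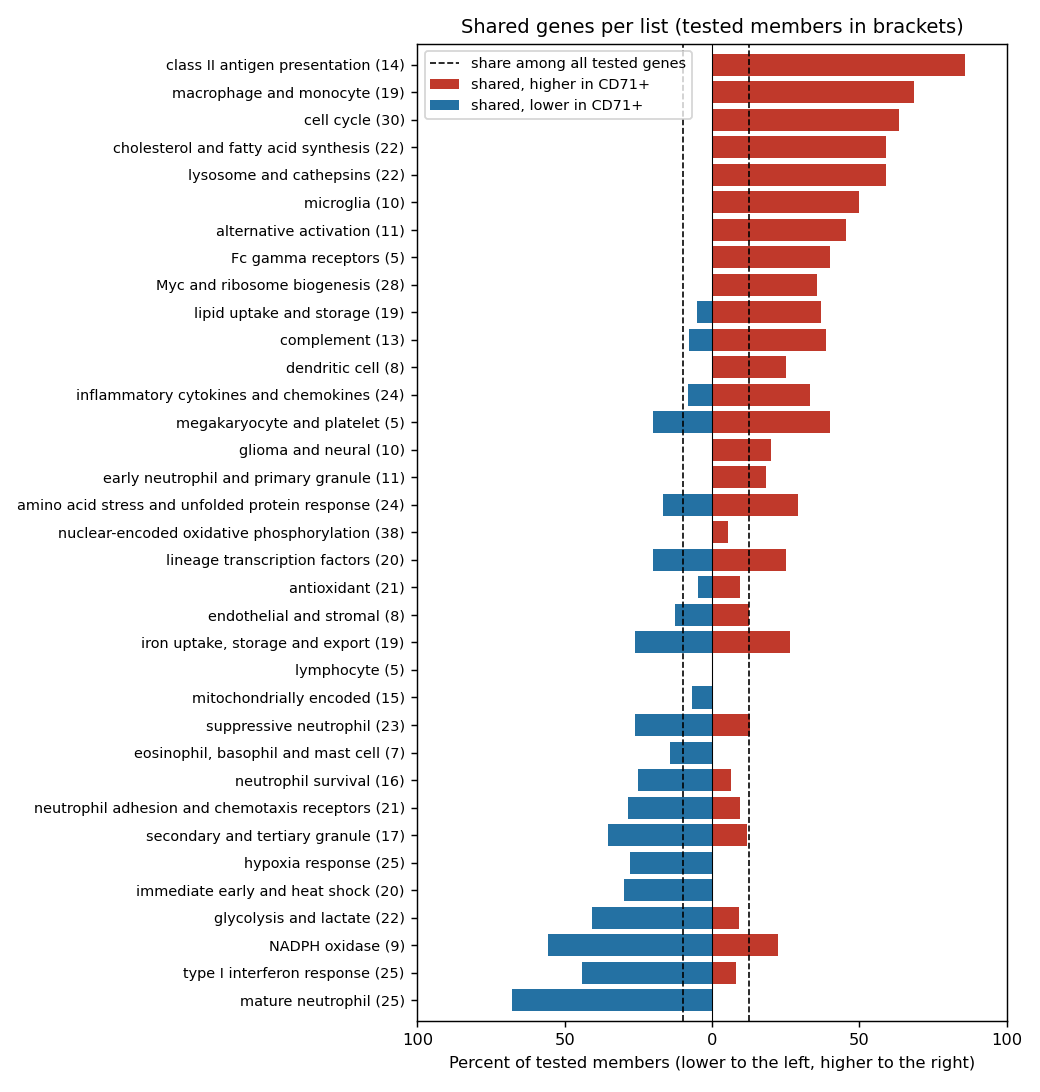
Bars give, for each list with 5 or more tested members, the percent of members that were shared rises (right) and shared falls (left), with the number tested in brackets and dashed lines at the shares among all genes, 12.6% and 9.82%. Class II antigen presentation reaches 85.7% to the right and the mature neutrophil list 68.0% to the left.

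The series title names hypoxia and histone lactylation, so genes of glucose use, lactate and the hypoxia response are given whatever their values. Of 22 glycolysis and lactate genes, 9 were shared falls (40.9%) and 2 shared rises, or up to 4 rises without culture CD71- library 2 or culture CD71+ library 2, with a median of -0.35 that turned to 0.08 with total counts and 0.46 on mature neutrophil genes. The falls numbered 4 to 9 as libraries were left out and moved by over 1.5 times without culture CD71+ library 2, tumour CD71- library 1 or tumour CD71+ library 2. Slc2a3, a high-affinity glucose transporter, was at 1862.8 and 1088.2 against 631.2 and 493.8 CPM in culture and 1354.8 and 1410.3 against 538.8 and 513.5 CPM in the tumour (2.63-fold lower, adjusted p 0.00083). It was the member of this list that fell by the most, and it stayed a shared fall with all 4 scalings. The lactate carriers parted: Slc16a1 rose from 2.61 and 3.36 to 8.15 and 7.61 CPM in culture and from 6.71 and 4.02 to 20.4 and 20.6 CPM in the tumour (3.18-fold, adjusted p 0.0018), while the more abundant Slc16a3 fell 1.78-fold (adjusted p 0.026). The Slc16a3 call held in 3 of the 8 fits without a library (adjusted p up to 0.0731), those without culture CD71- library 1 or either culture CD71+ library, and not with total counts or on mature neutrophil genes.

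Of the genes that the question turns on, Ldha, Slc2a1 and Hif1a were not shared, and Ep300 was a shared fall. Ldha, which makes lactate, was at 798.7 and 1004.1 against 876.5 and 639.3 CPM in culture and 962.4 and 954.3 against 744.2 and 659.3 CPM in the tumour (log2 -0.35 ± 0.16, adjusted p 0.13), and turned to 0.47 on mature neutrophil genes (adjusted p 0.0287). The glucose transporter Slc2a1 was at 542.2 and 557.5 against 555.5 and 501.9 CPM in culture, which overlapped, and at 2152.7 and 1740.7 against 1139.8 and 744.1 CPM in the tumour. Its effect differed between the origins by -0.99 on the log2 scale (adjusted p 0.034). Hif1a, the oxygen-regulated transcription factor, was at 139.1 and 117.6 against 148.9 and 121.7 CPM in culture and 891.9 and 908.9 against 724.7 and 706.1 CPM in the tumour (adjusted p 0.56), and turned to 0.71 on mature neutrophil genes (adjusted p 0.00216). Ep300, an acetyltransferase that also adds lactyl groups to histones, was at 572.6 and 472.0 against 373.8 and 355.9 CPM in culture and 358.3 and 451.8 against 328.2 and 288.4 CPM in the tumour. It was a shared fall (log2 -0.46 ± 0.15, adjusted p 0.04), but passed again only in the fits that left out culture CD71- library 2 or tumour CD71- library 1 among the 8 without a library (adjusted p up to 0.121), was not one with total counts, and turned to 0.39 on mature neutrophil genes (adjusted p 0.0383).

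Vegfa, the angiogenic factor, fell from 993.7 and 1226.3 to 657.7 and 729.2 CPM in culture and from 1476.9 and 1001.6 to 955.1 and 690.0 CPM in the tumour (1.55-fold lower, adjusted p 0.025). The Vegfa call was lost without either culture CD71+ library, tumour CD71- library 1 or tumour CD71+ library 2 (adjusted p 0.0554 to 0.0794), and the value turned to 0.19 on mature neutrophil genes. In the hypoxia list, 7 of 25 were shared falls (28.0%) and none was a shared rise (1 was without culture CD71- library 1), with a median of -0.40 that turned to 0.03 with total counts and 0.43 on mature neutrophil genes. The 7 became 4 to 8 as libraries were left out, moving by over 1.5 times without culture CD71+ library 2 or tumour CD71+ library 2. Ankrd37, a hypoxia-induced gene, was at 81.1 and 67.7 against 38.8 and 32.9 CPM in culture and 20.8 and 21.1 against 9.82 and 10.8 CPM in the tumour (2.05-fold lower, adjusted p 0.0017), with genes overlapping it on the other strand. Pfkfb3, a driver of glycolysis, fell 1.83-fold (adjusted p 0.0033). Neither Ankrd37 nor Pfkfb3 was a shared fall on mature neutrophil genes, nor was Pfkfb3 with total counts.

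Arginase 1, an enzyme of suppressive myeloid cells that uses up arginine, was a shared rise that differed in size. Arg1 was at 241.5 and 338.4 against 588.4 and 451.0 CPM in culture and at 37.3 and 21.4 against 333.4 and 287.3 CPM in the tumour. The common log2 fold change was 2.09 ± 0.49 (adjusted p 0.013), made up of 3.40 ± 0.27 in the tumour and 0.84 ± 0.24 in culture, and the difference passed (adjusted p 0.00088). Its sister enzyme Arg2 went the other way, from 99.5 and 72.3 to 41.3 and 32.9 CPM in culture and from 1206.1 and 1172.6 to 536.9 and 535.9 CPM in the tumour (2.26-fold lower, adjusted p 0.00072), with other genes overlapping it on the opposite strand and no shared fall on mature neutrophil genes. The alternative activation list, to which Arg1 and Mgl2 belong, had 5 shared rises among 11 tested (45.5%) and a median of 2.09.

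Cd274, Cd14, Olr1 and Tnfrsf10b, which are known as markers of suppressive or tumour-conditioned neutrophils, were each separated in both origins but in opposite directions. The checkpoint ligand Cd274 was at 250.3 and 187.2 against 286.3 and 254.9 CPM in culture and 1774.7 and 1463.8 against 1079.6 and 940.3 CPM in the tumour, with a common adjusted p of 0.55, and 0.65 on the log2 scale on mature neutrophil genes (adjusted p 0.0205). Cd14, a lipopolysaccharide coreceptor, was at 159.1 and 190.5 against 261.6 and 247.8 CPM in culture and 5071.1 and 4782.2 against 3172.8 and 1977.2 CPM in the tumour. Olr1, a receptor for oxidized lipoprotein, was at 38.9 and 32.8 against 96.2 and 94.4 CPM in culture and 630.8 and 494.3 against 379.8 and 293.4 CPM in the tumour. Their libraries thus lay higher in CD71+ in culture and lower in CD71+ in the tumour, and the difference passed for Cd274, Cd14 and Olr1. For Tnfrsf10b, a death receptor at 2.9 to 8.39 CPM, it did not (adjusted p 0.22). Within culture alone only Olr1 passed (adjusted p 0.00029), and Cd274 (0.3), Cd14 (0.1) and Tnfrsf10b (0.7) did not. Within the tumour alone Cd274, Cd14 and Olr1 passed (adjusted p 0.01, 0.0034 and 0.0057) and Tnfrsf10b did not (0.12).

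The direction of survival and early response genes depended on the scaling. Of 16 survival genes, 4 were shared falls (25.0%, beside 9.82% of all genes) and 1 a shared rise with TMM, and the falls numbered 1 to 4 as libraries were left out, with each tumour library moving them by over 1.5 times. The survival median of -0.13 turned to 0.30 with total counts, where 3 members passed as higher and 1 as lower, and to 0.69 on mature neutrophil genes, where 10 passed as higher and 0 as lower. Bcl2, which blocks cell death in long-lived cells, rose from 1.78 and 3.36 to 7.11 and 9.34 CPM in culture and from 6.99 and 7.08 to 20.5 and 19.3 CPM in the tumour (3.03-fold, adjusted p 0.0023). Its relative Bcl2l1 fell from 119.8 and 126.7 to 84.5 and 80.9 CPM in culture and from 944.2 and 945.1 to 456.5 and 376.1 CPM in the tumour (1.84-fold lower, adjusted p 0.0037). The immediate early and heat shock list had 6 shared falls among 20 (30.0%), and 3 to 6 as libraries were left out, with the count moved by over 1.5 times without tumour CD71+ library 1. Its median of -0.42 turned to 0.10 with total counts and to 0.44 on mature neutrophil genes. Jund, an AP-1 subunit, fell 2.5-fold (adjusted p 0.0028). Bcl2l1 and Jund were not shared falls on mature neutrophil genes, and Jund was not with total counts either. Gsr, the glutathione reductase, fell 2.36-fold (adjusted p 0.00089), from 899.9 and 925.5 to 371.8 and 378.5 CPM in culture and from 2253.4 and 1540.3 to 939.0 and 723.4 CPM in the tumour, with every scaling but that on mature neutrophil genes.

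Transcription factors of the myeloid lineages also moved in both directions. Irf8, which steers progenitors to monocytes and dendritic cells, was at 0.712 and 1.36 against 8.89 and 7.02 CPM in culture and 9.93 and 8.6 against 93.6 and 84.2 CPM in the tumour (8.86-fold, adjusted p 3.2e-05). Klf4, needed for monocyte formation, was at 2.67 and 4.36 against 9.01 and 8.79 CPM in culture and 17.9 and 13.2 against 86.8 and 76.9 CPM in the tumour (3.75-fold, adjusted p 0.00096). Nfe2, a factor of the megakaryocyte and myeloid lineages, fell from 76.9 and 87.5 to 51.4 and 44.7 CPM in culture and from 37.9 and 53.1 to 21.9 and 18.9 CPM in the tumour (1.95-fold lower, adjusted p 0.0035), though not as a shared fall on mature neutrophil genes. In all, 5 of 20 lineage factors tested were shared rises and 4 shared falls. The falls numbered 1 to 5 as libraries were left out, moved by over 1.5 times without culture CD71- library 2 or any tumour library.

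Among the most abundant falls, Slfn4, a schlafen protein of myeloid cells, was at 263.3 and 199.5 against 75.2 and 78.4 CPM in culture and 15978.6 and 13008.5 against 5766.2 and 6765.1 CPM in the tumour (2.64-fold lower, adjusted p 0.00077). Mxd1, an antagonist of Myc in maturing granulocytes, was at 760.1 and 676.8 against 299.5 and 267.0 CPM in culture and 7762.2 and 7992.3 against 4118.2 and 3614.0 CPM in the tumour (2.27-fold lower, adjusted p 0.00089). Both kept the fall with DESeq2 size factors and total counts, and neither was a shared fall on mature neutrophil genes. Other abundant falls were weaker. Neat1, a nuclear long non-coding RNA at 29158.9 and 33068.1 against 14506.8 and 12414.0 CPM in the tumour, passed with an adjusted p of 0.017 but in only 3 of the 8 fits without a library, those without culture CD71- library 2 or either culture CD71+ library (adjusted p up to 0.0654), and not with total counts or on mature neutrophil genes. Tnfaip3, a brake on NF-kB, passed at 0.038 and in only 1 of these 8 fits, that without culture CD71- library 2 (adjusted p up to 0.143), and turned to 0.26 on mature neutrophil genes.

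**Figure D5:**
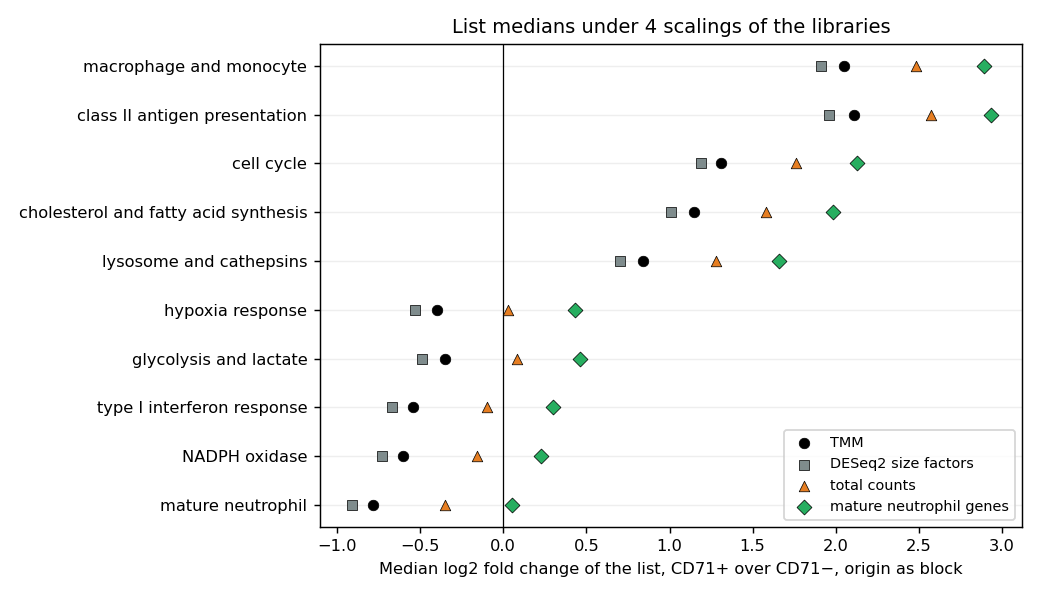
Median log2 fold change of 10 lists with the origin as block, under TMM, DESeq2 size factors, total counts and scaling on mature neutrophil genes. The 5 lists of rises stay above 0 under all 4, whereas the 5 lists of falls move above 0 on mature neutrophil genes. Total counts and scaling on mature neutrophil genes shift all of these medians upward relative to TMM.

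Respiratory chain genes held few shared changes. Of 38 nuclear-encoded members, 2 were shared rises (5.26%, beside 12.6% of all genes), a count that ran from 1 to 14 as single libraries were left out and that only culture CD71- library 1 and culture CD71+ library 1 left within 1.5 times. Of 15 mitochondrially encoded genes, 1 was a shared fall, mt-Nd4l, or up to 6 without tumour CD71- library 2 or tumour CD71+ library 1, and 7 were separated in opposite directions, with medians of 0.73 in the tumour and -2.95 in culture. That fall of mt-Nd4l, which overlaps mt-Nd4, rests on culture, where it was at 9.37 and 13.4 against 0.336 and 1.04 CPM. In the tumour it was at most 0.28 CPM in any library.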

How the data were processed

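RNA was measured in 8 libraries of sorted mouse neutrophils. Total RNA came from a Zymo microprep kit and went into an Illumina stranded kit that removes ribosomal RNA, per the labels' protocols. The authors deposited whole-number read counts per gene, not normalized, and the submitters' processing notes name FastQC, cutadapt, STAR, featureCounts and DESeq2 with build mm10, without versions or a strand setting. Reads of overlapping, antisense or near-identical genes could therefore be divided or lost, and such genes are named as uncertain in the text. Annotated genes also overlap Ciita, Hvcn1, Olfm4, Fn1, Eef1a1, Hif1a, Cd274, Slc2a1, Ep300, Jund, Jun, Slc11a2, Bcl2, Cd34, Sox4, Dkc1, Cd74, Cebpd, Fcgr2b, Neat1 and Slco2b1, so their values carry the same doubt. All 55450 gene IDs were matched to GENCODE M21, and 29244 had a count.

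Counts were fitted in R 4.3.3 with edgeR 4.0.16. Genes kept by filterByExpr over the 4 groups (15975) were scaled by TMM, and edgeR's quasi-likelihood test with robust dispersions and Benjamini-Hochberg adjustment was applied to an additive model of origin and sort fraction (5 residual degrees of freedom, biological coefficient of variation 0.27). Adjusted p-values in the text come from this test over all 15975 genes, unless an origin, a difference between origins, another scaling or a left-out library is named, when they come from that fit over all its genes. Fold changes within an origin, and their difference, with their adjusted p-values, come from a model of 4 group means (4 residual degrees of freedom, coefficient 0.19). Errors are standard errors from the F statistic, and n is 2 libraries per group. Separation of groups was read from TMM-scaled CPM. DESeq2 1.42.0 served as an alternative.

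Total counts per library limit precision as given in the text, and reads carry no molecular identifiers. No pair of replicates held identical values, and their counts differed by more than sampling noise (chi-square over degrees of freedom 14.5 to 77.4).

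Named were Tfrc, 12 genes of the study's question, the 12 largest changes in each direction among shared genes with a mean of at least 5 CPM, the 8 most abundant in each direction, and up to 3 shared genes per direction from each of 36 textbook lists with a mean of at least 1 CPM. Genes called by a model number or a clone name were left out of the first groups. Some genes that these rules name are not reported here. Other list members were named after their values were seen. The members and lists were chosen with earlier results of these data known. Promoters, 250 bases before the start, came from RefSeq's table for GRCm38.p6, which matched 10439 of the genes tested. Alternatives were 3 other scalings, other filters, DESeq2's test, other models and leaving out each library.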

Additional observations from a re-analysis of the deposited data

Results flagged for a closer look

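For 30 of the named genes the CD71 effect differed in size or direction between the origins, by the test of the difference itself (tumour minus culture, on the log2 scale, adjusted p under 0.05). The rises that were larger in the tumour differed by 2.56 for Arg1, 1.87 for Ahnak, 0.97 for Lyz2, 1.45 for Csf1r, 2.99 for C3ar1, 2.52 for Fcgr1, 2.78 for Gpr34 and 1.72 for Mrc1. Slc11a2 differed by 1.40, Hfe by 1.67, Bst2 by 1.47, H2-DMb2 by 2.56, Lgmn by 0.98, Ctss by 1.32 and Msr1 by 1.14. Growth and antioxidant genes in this group were Utp20 (1.90), Dkc1 (1.93), Ndufa10 (1.10) and Prdx1 (1.57). H2-DMb2 had 3 counts in both tumour CD71- libraries together, so its value depends on few reads.

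Falls that were larger in culture gave positive differences, of 2.91 for Calr4, 1.74 for Rnf144a, 0.96 for Csf3r, 1.62 for S100a9, 1.21 for S100a8 and 1.09 for Oasl2. Hdc, the histamine-forming enzyme, fell more in the tumour, by -0.90. Slc2a1 differed by -0.99, and its culture groups overlapped. Cd274 (-0.99), Cd14 (-1.48) and Olr1 (-2.15) lay higher in culture CD71+ and lower in tumour CD71+, though within culture alone only Olr1 passed. No explanation of these differences was tested.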

How the results depend on the processing

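Genes passing as higher, 2326 with TMM, were 4860 with total counts, 9327 on mature neutrophil genes and 3790 with 4 group means. Genes passing as lower, 1763, were 432, 103 and 2668 under the same settings and 2849 with DESeq2's Wald test. Shared rises, 2011, became 4252 with total counts, 8003 on mature neutrophil genes and 778 when a pass within each origin replaced that of the common effect (777 of these also passed as shared). Shared falls, 1569, became 357, 51 and 706. Leaving out 1 library gave 1191 to 2586 genes passing as higher, 1138 to 2049 as lower, 1112 to 2356 shared rises, 1096 to 1978 shared falls and 182 to 702 shared genes with a difference between origins. The lone library left in a group was then assumed to vary like the others.

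Same-numbered libraries deviated together weakly (correlation 0.27 in the tumour and 0.08 in culture). No value for unpaired libraries stood beside these, so whether the numbers mark a pairing cannot be told. With the replicate block, 1406 genes passed as higher and 1124 as lower, 1271 were shared rises and 1062 shared falls, and 660 shared genes differed between origins. Both alternatives added after seeing the data kept the counts within 1.5 times: at least 1 CPM in the higher fraction of both origins (1701 and 1512) and protein-coding genes only (1830 and 1397).

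Of the 138 named genes that passed, 109 did so without any 1 library. On mature neutrophil genes the log2 fold change turned positive for Tfrc (0.53), Vegfa (0.19), Cd274 (0.65), Ldha (0.47), Hif1a (0.71), Ep300 (0.39), Il1b (0.18), Tnfaip3 (0.26), Fosl2 (0.17), Ncf4 (0.03), Pecam1 (0.39), Kdm3a (0.02), C3 (0.24), Jun (0.13), Klf2 (0.08), Cebpd (0.15), Birc3 (0.14) and Bcl2l11 (0.27). So did list medians for secondary and tertiary granules (0.32), mature neutrophils (0.05), adhesion and chemotaxis (0.41), NADPH oxidase (0.23), eosinophils, basophils and mast cells (0.12), interferon (0.30), iron (0.58), hypoxia (0.43), glycolysis (0.46), suppressive neutrophils (0.62), immediate early and heat shock (0.44), antioxidants (0.70) and survival (0.69). For the last 7, total counts gave 0.19, 0.03, 0.08, 0.22, 0.10, 0.28 and 0.30. With DESeq2 size factors, medians turned to -0.02 for early neutrophils, -0.12 for amino acid stress and -0.10 for lineage factors. Scaling on mature neutrophil genes sets those genes level by construction. As their median was -0.78 with TMM, the median of all genes lay 0.84 higher with this scaling. A cause of these turns was not tested.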

Other observations

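The Fc gamma receptor and complement lists held more shared rises than shared falls. Of 5 Fc gamma receptor genes, 2 were shared rises, the high-affinity Fcgr1 and the inhibitory Fcgr2b, and neither passed without tumour CD71- library 1 or 2 (adjusted p 0.0639 and 0.078 for Fcgr1, 0.0819 and 0.0709 for Fcgr2b). Fcgr2b was at 631.8 and 532.5 against 795.1 and 701.2 CPM in culture and 187.1 and 194.4 against 361.7 and 368.1 CPM in the tumour. In the complement list, 5 of 13 tested were shared rises (C1qa, C1qb, C1qc and C3ar1 among them), though the C1q genes were almost absent in culture. The single shared fall (7.69%, beside 9.82% of all genes) was C3, the central component. The C3ar1 call was lost without culture CD71+ library 1 or any 1 of the tumour libraries (adjusted p 0.0612 to 0.0958). C3 was at 1986.7 and 1894.7 against 1864.6 and 1379.0 CPM in culture and 1612.6 and 1470.6 against 833.4 and 815.4 CPM in the tumour. Its call (adjusted p 0.038) held in 2 of the 8 fits without a library, those without culture CD71- library 2 or culture CD71+ library 1, and its direction turned to 0.24 on mature neutrophil genes.

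Smaller lists of other lineages held single members, to be read beside the 12.6% of all genes tested that were shared rises and the 9.82% that were shared falls. In the platelet list, 2 of 5 tested were shared rises, Pf4 and Ppbp, and 1 was a shared fall, Itga2b. Pf4, a platelet chemokine that macrophages also make, was at 0.652 and 1.27 against 4.4 and 2.77 CPM in culture and 0.979 and 0.694 against 16.7 and 6.03 CPM in the tumour. In the eosinophil, basophil and mast cell list, 1 of 7 was a shared fall, Ccr3 (adjusted p 0.044), which passed in 2 of the 8 fits without a library, those without culture CD71- library 2 or tumour CD71- library 1. Of the endothelial and stromal list, 1 of 8 was a shared rise (12.5%, near the share of all genes), Kdr (up to 2 without culture CD71- library 2 or either culture CD71+ library), and 1 a shared fall, Pecam1, which passed only without culture CD71- library 2. Among adhesion and chemotaxis receptors, 2 of 21 were shared rises (9.52%), Ccr2 and C3ar1, and 6 were shared falls (28.6%), 4 to 10 as libraries were left out, with the count moved by over 1.5 times without culture CD71- library 2. Of the suppressive neutrophil list, 6 of 23 were shared falls and 3 shared rises, and 7 were separated in opposite directions in the origins. In the antioxidant list, 2 of 21 were shared rises (9.52%), the peroxiredoxins Prdx1 and Prdx4, and Gsr was the single shared fall (4.76%), both below the shares of all genes. The rises ran from 1 to 3 as libraries were left out, moved by over 1.5 times without tumour CD71- library 1, and the falls reached 2 without either culture CD71- library or tumour CD71- library 1. No explanation was tested for these values.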
